A study of Mus musculus with 69 samples.

Results

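The 56 genes described here encode the proteins that copy DNA in S phase, together with the E2F factors and E-type cyclins that switch them on. They were chosen by symbol, as genes of DNA replication and S phase found in all 4 deposited tables, and make up 56 of the 52404 gene identifiers that the tables share. This choice was made with earlier results of these data known, so shares set beside all genes describe the list and do not test it. RNA-seq had been done on kidney tubules dissected from male wild-type C57BL/6 mice, which were 7 weeks old when they were assigned to surgery. They came from the proximal tubule, of which the initial segment (PT-S1) was taken and where much of the filtered load is reabsorbed, or from the cortical collecting duct (CCD), where principal and intercalated cells adjust salt, water and acid. In the unilateral nephrectomy group (UNx) a kidney had been excised, and the sham group had an operation without it. Tubules were taken 24 h or 72 h later, and each combination of segment and time formed a table of TPM values, a level of transcripts scaled by gene length and library. The comparison asks whether the replication genes of each segment differ between sham and UNx animals at each time.

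DNA replication is prepared before S phase begins. Pocket proteins of the retinoblastoma family hold E2F factors in check until cyclin-dependent kinases phosphorylate them, and free E2F then drives cyclin E and most of the replication genes. Origins are licensed when ORC, CDC6 and CDT1 load the MCM helicase, they fire when CDC45 and GINS join it, and polymerases, clamp, clamp loader and nucleotide supply then carry the fork. Tubule cells of a healthy adult kidney rarely divide, and the kidney that remains after nephrectomy enlarges, largely by growth of its tubules.

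The promoters of a few members are printed because many of these genes are known E2F targets, and the letters show how the members differ among themselves. Windows from 250 bases before to 50 bases after the annotated start were found in the RefSeq promoter table (GRCm38.p6) for 46 of the 56 genes. The E2F words searched on both strands were TTTCCCGC, TTTGGCGC, TTTCGCGC and TTTGCCGC, and 19 of the 46 genes (41.3%) held at least 1 of them, against 704 of 27025 genes (2.6%) in the whole table. The CCAAT box, the word CCAAT on both strands, was present in 28 of the 46 (60.9%) and in 41.1% of all genes. The word TTTGAA, the core of the CHR element of many mitotic promoters, was present in 7 of the 46 (15.2%) and in 20.2% of all genes. The 200 bases before the start are shown 5′ to 3′ along the gene for 7 members that were higher after UNx in the CCD, with E2F words and CCAAT boxes of either strand in capitals. Coordinates are those of GRCm38.p6, while the authors' files were built on GRCm39 per the submitters' processing notes.
Mcm5, chr8:75109309-75109508, plus strand: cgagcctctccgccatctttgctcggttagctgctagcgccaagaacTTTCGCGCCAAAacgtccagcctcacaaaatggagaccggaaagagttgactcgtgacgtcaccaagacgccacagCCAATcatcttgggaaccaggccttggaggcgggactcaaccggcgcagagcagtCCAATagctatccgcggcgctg
Mcm6, chr1:128359706-128359905, minus strand: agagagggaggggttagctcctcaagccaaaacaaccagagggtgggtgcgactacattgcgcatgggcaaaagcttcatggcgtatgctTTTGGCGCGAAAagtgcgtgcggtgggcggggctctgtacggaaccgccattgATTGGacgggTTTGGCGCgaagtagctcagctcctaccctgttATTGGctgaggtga
Dtl, chr1:191575545-191575744, minus strand: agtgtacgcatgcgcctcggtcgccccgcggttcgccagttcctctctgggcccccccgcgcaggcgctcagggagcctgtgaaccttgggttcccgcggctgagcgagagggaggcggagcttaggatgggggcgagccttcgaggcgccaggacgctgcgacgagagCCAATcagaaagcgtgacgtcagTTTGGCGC
Cdc6, chr11:98907951-98908150, plus strand: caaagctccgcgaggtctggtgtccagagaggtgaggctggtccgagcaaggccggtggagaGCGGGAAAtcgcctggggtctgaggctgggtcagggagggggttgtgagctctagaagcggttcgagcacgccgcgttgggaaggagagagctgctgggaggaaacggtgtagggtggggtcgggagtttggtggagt
Uhrf1, the later of its 2 starts, chr17:56304113-56304312, plus strand: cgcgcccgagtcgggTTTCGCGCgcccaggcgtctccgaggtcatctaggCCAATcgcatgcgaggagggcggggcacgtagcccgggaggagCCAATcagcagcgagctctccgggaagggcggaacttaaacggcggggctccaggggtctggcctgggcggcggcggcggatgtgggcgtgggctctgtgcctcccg
Asf1b, chr8:83955494-83955693, plus strand: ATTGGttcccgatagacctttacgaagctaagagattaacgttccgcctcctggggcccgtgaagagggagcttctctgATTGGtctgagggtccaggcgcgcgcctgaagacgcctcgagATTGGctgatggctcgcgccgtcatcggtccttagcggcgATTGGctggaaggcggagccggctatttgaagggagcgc
Rrm2, chr12:24708054-24708253, plus strand: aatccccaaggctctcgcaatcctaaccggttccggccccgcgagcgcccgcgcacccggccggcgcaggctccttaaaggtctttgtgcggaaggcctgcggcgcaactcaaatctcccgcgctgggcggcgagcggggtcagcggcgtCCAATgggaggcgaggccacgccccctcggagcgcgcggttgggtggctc
In Mcm5 the capitals TTTCGCGCCAAA hold 2 E2F words that overlap, TTTCGCGC on the printed strand and TTTGGCGC on the other. Mcm6 has the mirror arrangement TTTGGCGCGAAA and a further TTTGGCGC near the start, while in Dtl the word TTTGGCGC ends at the base before the start. Asf1b and Rrm2 hold none of the 4 E2F words in the whole window. Asf1b has 4 CCAAT boxes, all on the opposite strand and therefore printed as ATTGG, and Rrm2 has 1. These matches describe the letters and show nothing about binding.

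The 69 libraries came from 3 to 5 animals per group, and since a label numbers each sham or UNx mouse, that number was read as the animal and its libraries were averaged. PT-S1 had 8 sham libraries of 3 animals and 9 UNx libraries of 4 animals at 24 h, and 12 libraries of 5 animals per group at 72 h. CCD had 8 sham libraries of 4 animals and 7 UNx libraries of 3 animals at 24 h, and 7 sham and 6 UNx libraries of 4 animals each at 72 h. TPM keeps no depth, and 9247 to 14875 genes reached 1 TPM per library. Of these, 5 libraries stood apart, with a median correlation with the rest of their table under 0.92: the first of sham animal 1 and the second of sham animal 3 in PT-S1 at 24 h, the second of UNx animals 1 and 2 in PT-S1 at 72 h, and the second of sham animal 1 in CCD at 72 h. The markers told proximal tubule from collecting duct. The 8 proximal tubule S1/S2 markers summed to 9278 to 18900 TPM per animal in PT-S1 and to 12.8 to 87.7 in CCD. The 6 principal cell markers summed to 18750 to 61900 in CCD and to 27.9 to 112 in PT-S1. The 5 markers of the later S3 segment summed in PT-S1 to 1088 to 1623 TPM in sham and 1129 to 2105 in UNx at 24 h. At 72 h they summed to 583 to 3247 and 576.5 to 2034 TPM. Whether the tubules were of S1 alone was not tested. In tubule RNA, fewer cells of a type and less RNA per cell cannot be told apart. The p-values measure the spread between these animals, except in the alternative that takes every library as a replicate.

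**Figure D1:**
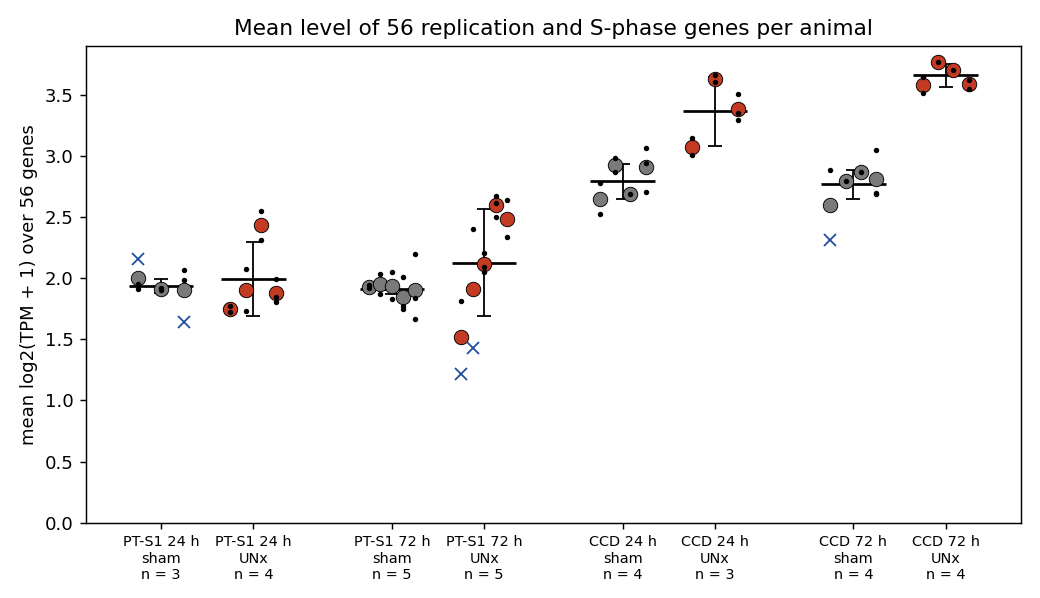
Mean log2(TPM + 1) of the 56 genes for each animal (large points) and library (small points; blue crosses are libraries with a correlation under 0.92), with the mean and SD of the animals, for sham (grey) and UNx (red) in the 4 tables. In CCD every UNx animal lay above every sham animal at both times, while in PT-S1 at 72 h the UNx animals ran from 1.52, below all sham animals, to 2.60, above them.

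In CCD at 72 h the mean log2(TPM + 1) over all 56 was 2.60, 2.79, 2.87 and 2.81 in sham animals 1 to 4 and 3.58, 3.77, 3.70 and 3.59 in UNx animals 1 to 4. Summed over the 56 genes, the level of sham animals was 678 ± 9.68 TPM (SD, n = 4), and that of UNx animals 1101 ± 85.3 TPM (n = 4). At 24 h the mean log2 level was 2.65, 2.92, 2.69 and 2.90 in the 4 sham animals and 3.08, 3.63 and 3.38 in the 3 UNx animals. No UNx animal of the CCD overlapped a sham animal at either time. In PT-S1 at 24 h the level was 2.00, 1.91 and 1.90 in sham and 1.74, 1.90, 2.43 and 1.88 in UNx animals 1 to 4, so that only UNx animal 3 stood above the sham animals and UNx animal 1 was lowest. In PT-S1 at 72 h it was 1.93, 1.95, 1.94, 1.84 and 1.90 in sham and 1.51, 1.91, 2.12, 2.60 and 2.49 in UNx animals 1 to 5, with animals 3, 4 and 5 above all sham animals and animal 1 below them.

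The CCD at 72 h held the clearest difference between sham and UNx. Of the 56 genes, 53 had a mean TPM of at least 1 and were tested, and 17 rose with an adjusted p under 0.05 (limma, Benjamini-Hochberg over all genes tested), where 0.581% of the 13770 genes tested rose. None fell. At an unadjusted p under 0.05, 48 of the 53 were higher, against 4.66% of all genes, and in 40 of the 53 every UNx animal lay above every sham animal, against 3.23% of all genes. The median change of the 53 was 0.83 on the log2(TPM + 1) scale and that of all genes 0.01. On this scale the change of a gene at low TPM is understated. The filter averaged sham and UNx animals together, so tested genes with a sham mean under 1 TPM passed it through their UNx values. These were E2f1, Ccne2, Mcm10, Pole, Clspn, Dtl, Brca1 and Esco2, whose place in these counts thus depends in part on the UNx level itself. Of them E2f1 (mean 0.629 TPM in sham, 5.05 in UNx), Dtl (0.795 and 4.91) and Esco2 (0.852 and 4.28) are among the 17. Without the filter, the UNx mean was above the sham mean for 55 of the 56 genes, with a median ratio of 1.90, and 3 of the members (Asf1b, E2f1 and Mcm3) were called. With the second library of sham animal 1 left out, 19 of 54 tested members rose, with Chaf1b, Pcna, Rfc4 and Tk1 added and Rrm1 among the 2 lost. The count of 17 depended on every UNx animal, since it was 7, 4, 3 and 9 when UNx animals 1, 2, 3 and 4 were left out in turn.

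**Figure D2:**
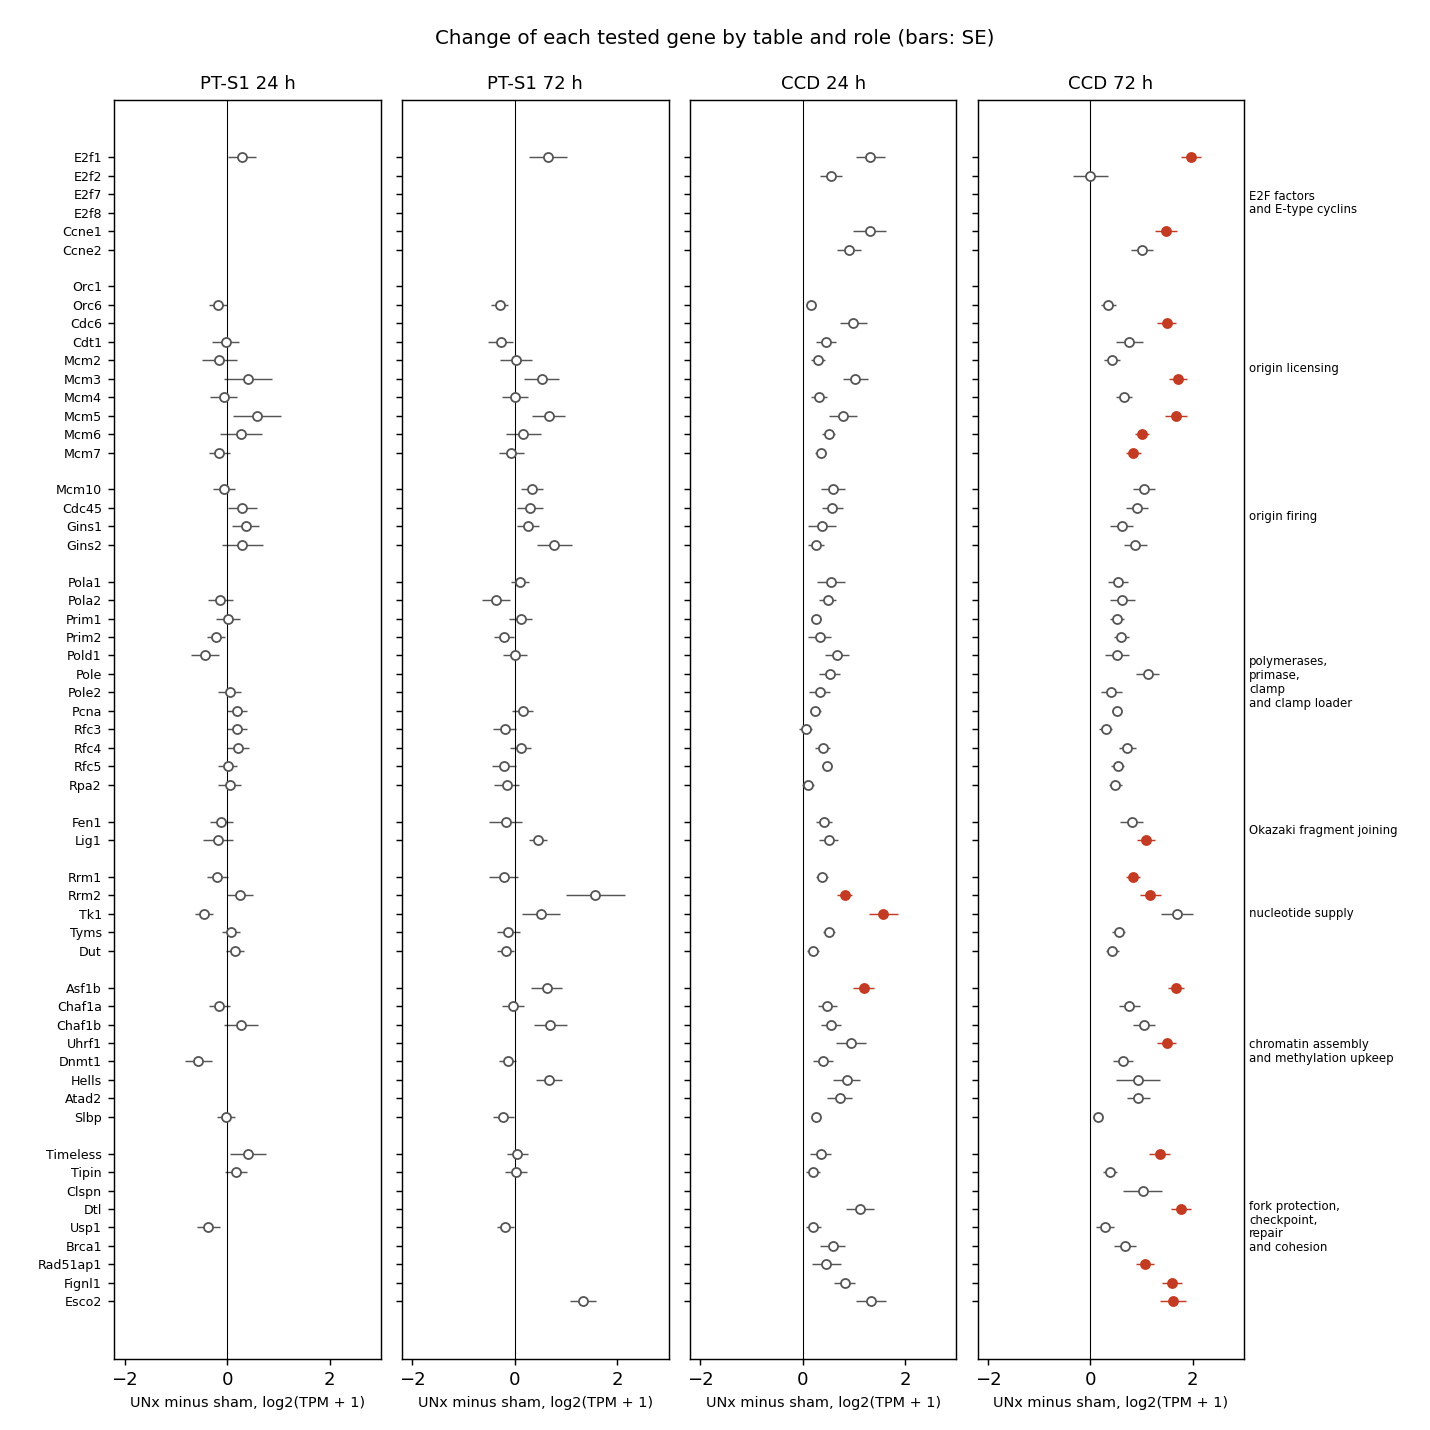
Change of each tested gene (UNx minus sham, log2(TPM + 1), with its SE) in the 4 tables, ordered by role; filled red points have an adjusted p under 0.05 by limma and open points do not. In CCD the points lie to the right of 0 for 52 of 52 genes at 24 h and 52 of 53 at 72 h, and in PT-S1 they scatter around it.

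Among the E2F factors and E-type cyclins, 2 of the 4 tested at 72 h rose in the CCD, with a median change of 1.24. E2f1, an activator of the replication programme, was at 0.465, 0.27, 0.75 and 1.03 TPM in sham animals 1 to 4 and at 4.59, 5.66, 5.02 and 4.93 TPM in UNx animals 1 to 4. The groups lay far apart and the 4 UNx animals were alike, so that the mean was 8.03-fold higher. Within sham animal 4 the 3 libraries differed, at 0.52, 2.53 and 0.04 TPM. The second library was also the highest of the 3 for Cdc6 (3.93 TPM), Dtl (2.37 TPM) and Esco2 (3.73 TPM). The change of E2f1 was 1.96 (SE 0.19, limma adjusted p = 0.00634). Ccne1, which encodes the cyclin E1 that activates CDK2 at the start of S phase, was at 1.29, 0.51, 1.63 and 1.2 TPM in sham and 5.26, 4.92, 3.95 and 4.66 TPM in UNx. All UNx animals were higher, with a change of 1.47 (SE 0.21, limma adjusted p = 0.0184). Ccne2, the other E-type cyclin, also had no overlap but did not pass the test (1.01, limma adjusted p = 0.0929). E2f2 showed no such pattern: sham animal 2 held the highest value at 5.74 TPM and the change was 0.00. With every animal kept, the change ran from -0.17 without the low-correlation library to 0.11 with every library a replicate. At 24 h the change of E2f2 was 0.56, with overlap (limma adjusted p = 0.25). The repressors E2f7 and E2f8, which are themselves induced as S phase proceeds, were under the filter. E2f8 was nevertheless at 0.11, 0.09, 0.11 and 0.357 TPM in sham and 1.12, 1.15, 1.52 and 0.93 TPM in UNx, without overlap.

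Origin licensing had 5 of 9 tested genes called at 72 h in the CCD, the MCM helicase genes Mcm3, Mcm5, Mcm6 and Mcm7 and the loader gene Cdc6. Mcm3 was at 5.28, 6.86, 8.57 and 5.87 TPM in the sham animals and 21.3, 24.8, 24.5 and 21.8 TPM in the UNx animals, a rise of 1.71 (SE 0.17, limma adjusted p = 0.00634). Mcm5, whose paired E2F words are printed above, was at 7.2, 11.6, 11.4 and 6.97 TPM in sham and 24.9, 33.8, 35.1 and 28.5 TPM in UNx, a rise of 1.67 (SE 0.21, adjusted p = 0.0108). Both genes thus had more than 3 times the sham mean without overlap. Mcm6 started from a higher sham level, 22.8, 23.1, 29.7 and 23 TPM, and reached 45.3, 49.6, 53.1 and 45.6 TPM, a rise of 1.00 (adjusted p = 0.0133). Mcm7 was at 16.1, 17, 20.4 and 22.3 TPM in sham and 31.3, 34, 41.4 and 30.5 TPM in UNx, a rise of 0.84 (adjusted p = 0.0435). The remaining subunits of the hexamer, Mcm2 and Mcm4, had changes of 0.42 and 0.66 and did not pass the test (limma adjusted p = 0.566 and 0.143), and differences between subunits were not tested. Cdc6 was at 0.7, 1.27, 1.28 and 1.8 TPM in sham and 5.16, 5.1, 4.73 and 5.2 TPM in UNx, a rise of 1.49 (SE 0.19, adjusted p = 0.0108). Its partner Cdt1 overlapped between the groups (0.76, adjusted p = 0.462), as did the ORC subunit gene Orc6 (0.35).

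None of the 4 genes of origin firing and none of the 12 genes of the polymerases, primase, clamp and clamp loader passed the limma test at 72 h in the CCD, although 4 of 4 and 11 of 12 had an unadjusted p under 0.05. Their median changes were 0.90 and 0.52. Pcna, the sliding clamp, was at 44.2, 36.9, 39.5 and 39.6 TPM in sham and 52.9, 59.1, 58.2 and 58.2 TPM in UNx. Every UNx animal was higher, by a change of 0.51, and the adjusted p was 0.0514 by limma. Mcm10 and Cdc45, which turn the loaded helicase active, had changes of 1.04 and 0.91 (adjusted p = 0.0878 and 0.134). Pole, the catalytic subunit of the leading-strand polymerase, was at 0.465, 0.56, 1.34 and 0.97 TPM in sham and 2.17, 3.51, 3.02 and 3.13 TPM in UNx, with a change of 1.12 (adjusted p = 0.0783). The clamp loader genes Rfc3, Rfc4 and Rfc5 had changes of 0.30, 0.72 and 0.53. Lig1, the ligase that joins Okazaki fragments, rose from 5.57, 4.6, 6.37 and 8.02 TPM in the sham animals to 12.5, 16, 14.7 and 12.2 TPM in the UNx animals (1.08, SE 0.18, limma adjusted p = 0.0281). Fen1, the flap endonuclease that acts just before it, had a change of 0.81 and did not pass (adjusted p = 0.251).

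Nucleotide supply had 2 of 5 genes called at 72 h in the CCD, the subunits of ribonucleotide reductase. Rrm2, the small subunit made for S phase, was at 15.4, 15.7, 26.9 and 23.1 TPM in sham and 54.5, 52.7, 37.1 and 38 TPM in UNx. UNx animals 1 and 2 were the highest, and the change was 1.17 (SE 0.21, limma adjusted p = 0.0423). Rrm1, the large subunit, was at 25.9, 29.4, 17.9 and 22.7 TPM in sham and 44.8, 41, 41.2 and 39.8 TPM in UNx (0.83, adjusted p = 0.0388). Without the low-correlation library of sham animal 1 its change was 0.68 and the limma adjusted p 0.168. Tk1, the thymidine kinase of the salvage route, was at 3.23, 4.06, 12.1 and 6.62 TPM in sham and 19.1, 22.2, 22.5 and 17.7 TPM in UNx. Its groups did not overlap and its change was large, 1.69, but the sham animals were spread and the adjusted p was 0.0512. Tyms and Dut, which make and protect the thymidylate pool, were already among the more abundant members in sham, with changes of 0.55 and 0.43 that did not pass (adjusted p = 0.161 and 0.301).

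Chromatin assembly and upkeep of methylation had 2 of 8 genes called at 72 h in the CCD. Asf1b, a histone chaperone of dividing cells, was at 4.12, 3.32, 4.09 and 4.26 TPM in sham and 14, 16.2, 15.7 and 12 TPM in UNx. The means of the sham animals were within a narrow band and all UNx animals far above it, a rise of 1.67 (SE 0.15, limma adjusted p = 0.00634). The libraries behind these means spread more, at 3.08, 6.94 and 2.77 TPM in sham animal 4. Uhrf1, which brings the maintenance methyltransferase to newly copied DNA, was at 3.83, 5.66, 5.96 and 5.9 TPM in sham and 14, 17.8, 17.6 and 14.8 TPM in UNx (1.49, SE 0.18, adjusted p = 0.0108). Dnmt1, that methyltransferase, had a change of 0.63 (adjusted p = 0.351). Slbp, the histone mRNA binding protein, was at 76.9, 71.8, 73.1 and 76.5 TPM in sham and 90.1, 88.5, 76.8 and 74.7 TPM in UNx, which overlapped (0.14). Hells, a chromatin remodeller, also overlapped, because sham animal 2 held 8.12 TPM against 1.24 to 1.89 in the other sham animals.

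Fork protection, checkpoint, repair and cohesion had 5 of 9 genes called at 72 h in the CCD. Dtl, the substrate receptor that removes CDT1 once forks are running, was at 0.585, 0.41, 1.14 and 1.04 TPM in sham and 4.68, 5.04, 5.01 and 4.9 TPM in UNx. The UNx animals were nearly equal, and the rise was 1.77 (SE 0.20, limma adjusted p = 0.00805). Timeless, of the fork protection complex, was at 1.42, 2.83, 2.85 and 3.27 TPM in sham and 6.64, 8.73, 8.54 and 7.58 TPM in UNx (1.35, adjusted p = 0.0221). Its partner Tipin had a change of 0.39 (adjusted p = 0.485). Fignl1, a recombination factor, was at 1.34, 1.7, 1.8 and 1.79 TPM in sham and 5.81, 7.95, 8.15 and 5.79 TPM in UNx (1.59, adjusted p = 0.00962). Esco2, the acetyltransferase that establishes cohesion between sister chromatids in S phase, was at 0.645, 0.19, 0.83 and 1.74 TPM in sham and 4.35, 4.25, 5.37 and 3.16 TPM in UNx (1.61, SE 0.25, adjusted p = 0.0221). In these genes no UNx animal overlapped a sham animal.

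The members also differed among themselves by their resting level. The 29 genes under 5 TPM in the sham CCD at 24 h had a median ratio of UNx to sham means of 3.01 in the separate animals at 72 h (range 0.85 to 8.03). The 16 genes from 5 to under 20 TPM had a median ratio of 1.53 (range 1.2 to 3.48), and the 11 genes at 20 TPM or more one of 1.43 (range 1.11 to 2.25). Across the 56 genes the Spearman correlation of the 24 h sham level with the 72 h ratio was -0.68, as a description over genes, which are not independent and which share their libraries. Scarce regulators and helicase loaders such as E2f1, Dtl and Cdc6 were thus at the high end and abundant members such as Slbp, Tyms and Dut at the low end. Others went against this order. The scarce E2f2, Pole2, Pola1 and Gins1 had ratios of 0.85, 1.46, 1.65 and 1.68, and the abundant Rrm2 and Mcm6 ratios of 2.25 and 1.96. The same relation over all genes was not tested. Of the 16 called genes with a promoter window 8 held an E2F word, and of the 30 others 11 did, and the median unfiltered change was 0.84 in the 19 genes with a word and 0.81 in the 27 without, on the log2(TPM + 1) scale. A relation of these words to the size of change was not tested.

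**Figure D3:**
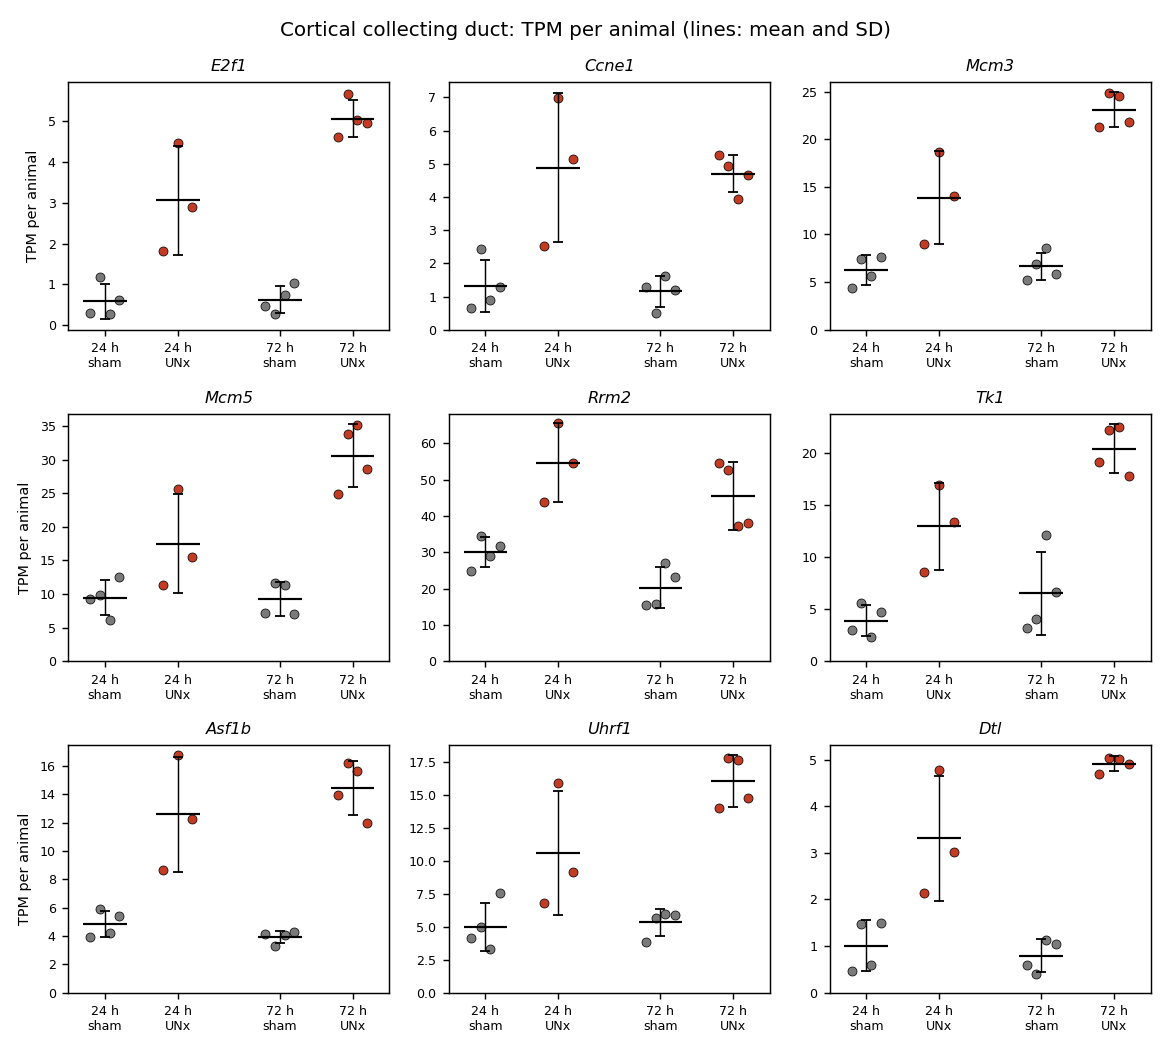
TPM per animal (points) with mean and SD (lines) for 9 members in the CCD, sham in grey and UNx in red, at 24 h and 72 h. The 72 h UNx animals lie above all 72 h sham animals in each panel, and at 24 h UNx animal 1 sits nearest to the sham animals.

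In the CCD at 24 h the members were also higher in UNx, with a smaller median change. Of 52 tested members 3 rose (Tk1, Rrm2 and Asf1b; limma, adjusted p under 0.05), where 0.327% of the 13775 genes tested rose. At an unadjusted p under 0.05, 35 of 52 were higher, against 5.55% of all genes, and 22 of 52 had every UNx animal above every sham animal, against 5.55% of all genes. All 52 changes were positive, against 41.8% of all genes, with a median of 0.50 beside -0.04 for all genes. E2f1, Mcm10, Pole, Brca1 and Esco2 had sham means under 1 TPM and passed the filter through their UNx values. Without the filter the UNx mean was higher for 56 of 56 genes, with a median ratio of 1.52. With any single animal left out, 0 of the members were called, so these calls rest on all 7 animals.

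Tk1 was at 3.01, 5.55, 2.29 and 4.75 TPM in sham animals 1 to 4 and at 8.54, 16.9 and 13.3 TPM in UNx animals 1 to 3 of the CCD at 24 h. The groups did not overlap, UNx animal 2 was the highest, and the change was 1.57 (SE 0.28, limma adjusted p = 0.0405). Rrm2 was at 25, 34.5, 29.1 and 31.8 TPM in sham and 44, 65.5 and 54.6 TPM in UNx, a rise of 0.82 (SE 0.15, adjusted p = 0.0426). Asf1b was at 3.96, 5.88, 4.21 and 5.4 TPM in sham and 8.69, 16.8 and 12.3 TPM in UNx, a rise of 1.19 (SE 0.21, adjusted p = 0.0398). In each of the 3 genes UNx animal 2 was highest and UNx animal 1 lowest among the UNx animals. The same animal 2 held the highest value of the table for 45 of the 56 genes.

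Several regulators missed the threshold at 24 h in the CCD without overlap between the groups. E2f1 was at 0.295, 1.19, 0.28 and 0.613 TPM in sham and 1.81, 4.46 and 2.88 TPM in UNx (1.32, limma adjusted p = 0.0695). Ccne1 was at 0.66, 2.43, 0.89 and 1.28 TPM in sham and 2.52, 6.97 and 5.16 TPM in UNx (1.31, adjusted p = 0.0956). Esco2 was at 1.25, 1.41, 0.27 and 0.743 TPM in sham and 2.31, 5.07 and 4.2 TPM in UNx (1.34, adjusted p = 0.0717). Among the helicase genes, Mcm3 and Mcm6 had changes of 1.03 and 0.51 without overlap (adjusted p = 0.0873 and 0.113), and Mcm5, at 9.29, 9.92, 6.13 and 12.6 TPM in sham and 11.4, 25.6 and 15.5 TPM in UNx, overlapped because UNx animal 1 was below sham animal 4. Rfc5, Tyms and Dtl had changes of 0.48, 0.51 and 1.12 (adjusted p = 0.0695, 0.0722 and 0.093). Uhrf1 (0.94, adjusted p = 0.168) and Timeless (0.35, adjusted p = 0.44) overlapped between the groups. Pcna, at 44, 39.9, 39.4 and 42.4 TPM in sham and 43.9, 59.6 and 46 TPM in UNx, was highest in UNx animal 2, while UNx animal 1 lay within the sham range.

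Whether the CCD response differed between the times was tested as the difference of both effects. None of the 52 members tested at both times differed (limma, smallest adjusted p = 0.968), and 0.0% of the 13253 genes tested did. At an unadjusted p under 0.05, 9 of 52 had a larger change at 72 h and none at 24 h, against 4.96% of all genes in either direction. The change was the larger at 72 h for 48 of 52, by a median of 0.28, and for 59.3% of all genes, with a median of 0.05. Timeless, with the smallest p, had a difference of 1.00 (SE 0.29), and Mcm5, Fignl1 and Mcm3 had differences of 0.88, 0.77 and 0.69, while Tk1 differed by 0.12. The genes kept a like order at both times, with a Spearman correlation of the unfiltered changes of 0.76 over the 56 genes, which share their libraries within each table.

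In PT-S1 at 72 h no member passed the test (0 of 40 tested, limma), and 0.0% of the 11886 genes tested were called higher. At an unadjusted p under 0.05, 5 of 40 were higher, against 1.33% of all genes, and none was lower, against 19.1% of all genes. Among the 40 tested, Esco2 was the single gene in which every UNx animal lay above every sham animal, against 0.236% of all genes, and none had the opposite pattern, against 5.33%. Esco2 passed the filter through its UNx values (sham mean 0.244 TPM, UNx mean 2.47 TPM). Its separation rested on a low-correlation library, as described below. The median change of the 40 was 0.04 beside -0.29 for all genes, and 23 of 40 were positive, against 17.0% of all genes. Scaling the libraries to a common median ratio moved the median of all genes to 0.02 and that of the members to 0.28. Without the second libraries of UNx animals 1 and 2, 42 members were tested and none had a limma adjusted p under 0.05. Their median was then 0.28, beside -0.02 for all genes. The shares of 17.0% and 1.33% belong to the fit without scaling and with all libraries.

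The PT-S1 values at 72 h differed widely between the UNx animals. Rrm2 was at 2.17, 2.6, 2.19, 3.1 and 4.04 TPM in sham animals 1 to 5 and at 1.11, 7.44, 8.82, 32.4 and 20.6 TPM in UNx animals 1 to 5. UNx animal 1 was below all sham animals and the other UNx animals were above them, up to 32.4 TPM, with a change of 1.57 (SE 0.57, limma adjusted p = 0.237). The 3 libraries of UNx animal 4 held 31.6, 38.5 and 27 TPM and the pair of UNx animal 5 held 21.9 and 19.4 TPM, so the high values were shared by the libraries of those animals. Esco2 was at 0.285, 0.035, 0.145, 0.54 and 0.217 TPM in sham and 1.74, 1.47, 1.26, 4 and 3.88 TPM in UNx (1.33, SE 0.26, adjusted p = 0.237). UNx animal 1 owed its value to its second library, which held 3.40 TPM against 0.08 in the first and is 1 of those with a low correlation. Without the low-correlation libraries the change of Esco2 was 1.05 (limma adjusted p = 0.209). UNx animal 1 was then at 0.08 TPM, within the sham range of 0.035 to 0.54 TPM, so the groups overlapped.

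E2f1 in PT-S1 at 72 h was at 1.27, 2.68, 1.49, 2.36 and 2.25 TPM in sham and 1.22, 2.44, 4.08, 8.02 and 7.16 TPM in UNx, so that UNx animals 3, 4 and 5 were above all sham animals and UNx animal 1 below (0.65, SE 0.37, limma adjusted p = 0.292). Mcm5 was at 2.67, 3.8, 2.69, 2.17 and 2.95 TPM in sham and 2.68, 4.39, 4.15, 9.45 and 9.45 TPM in UNx, and again UNx animals 4 and 5 stood out (0.66, adjusted p = 0.252). In the low-correlation libraries of UNx animals 1 and 2, E2f1 was at 0.35 and 0.40 TPM and Mcm5 at 0.69 and 0.71 TPM, below their sister libraries, and without them the changes were 0.96 and 1.07 (adjusted p = 0.209 and 0.143). Gins2, of the GINS complex, was at 1.7, 1.17, 2.54, 3.84 and 4.49 TPM in sham and 2.25, 5.06, 3.68, 11.7 and 5.43 TPM in UNx, highest in UNx animal 4 (0.77, adjusted p = 0.241). Lig1 was at 1.68, 1.31, 2.25, 1.51 and 1.56 TPM in sham and 2.94, 2.94, 1.89, 3.74 and 2.1 TPM in UNx (0.45, adjusted p = 0.237). UNx animals 1, 2 and 4 were above all sham animals there. For Lig1 the low-correlation libraries of UNx animals 1 and 2 held 4.5 and 3.87 TPM, beside 1.37 and 2 TPM in their sister libraries. Without the low-correlation libraries the change of Lig1 was 0.26 (limma adjusted p = 0.475). Hells was at 1.25, 0.955, 0.38, 0.817 and 0.817 TPM in sham and 0.485, 2.56, 4.49, 1.71 and 1.94 TPM in UNx (0.67, adjusted p = 0.237), and the value of UNx animal 3 came from a library at 10.5 TPM beside others at 1.38 and 1.6. Pola2, a subunit of the polymerase that extends primers, was at 8.35, 6.41, 6.82, 3.74 and 4.82 TPM in sham and 3.81, 2.44, 7, 5.02 and 5.55 TPM in UNx, with the lowest value in UNx animal 2 (-0.37, adjusted p = 0.39). Tk1 was at 7.92, 5.39, 9.56, 9.14 and 11.5 TPM in sham and 4.79, 8.8, 13.8, 30.4 and 16.1 TPM in UNx, highest in animal 4 (0.51, adjusted p = 0.378).

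In PT-S1 at 72 h 16 members were under the filter, among them Ccne1, Cdc6, Uhrf1, Dtl and Fignl1, which were called in the CCD. Over all 56 genes without the filter, the UNx mean was higher for 42, with a median ratio of 1.38, and UNx animal 4 held the highest value for 31 and UNx animal 5 for 15. UNx animal 1 held the lowest value for 29. E2f8 was at 0.03, 0.025, 0.02, 0 and 0 TPM in sham and 0.04, 0.09, 0.093, 0.4 and 0.42 TPM in UNx, every UNx animal above every sham animal at these low levels. Uhrf1 was at 0.35, 0.195, 0.43, 0.097 and 0.49 TPM in sham and 0.29, 1.09, 1.31, 2.9 and 2.59 TPM in UNx, and Cdc6 at 0.21, 0.115, 0.07, 0.143 and 0.037 TPM in sham and 0.03, 0.685, 0.47, 0.723 and 1.01 TPM in UNx. In both, UNx animals 2 to 5 were above all sham animals and UNx animal 1 was not.

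**Figure D4:**
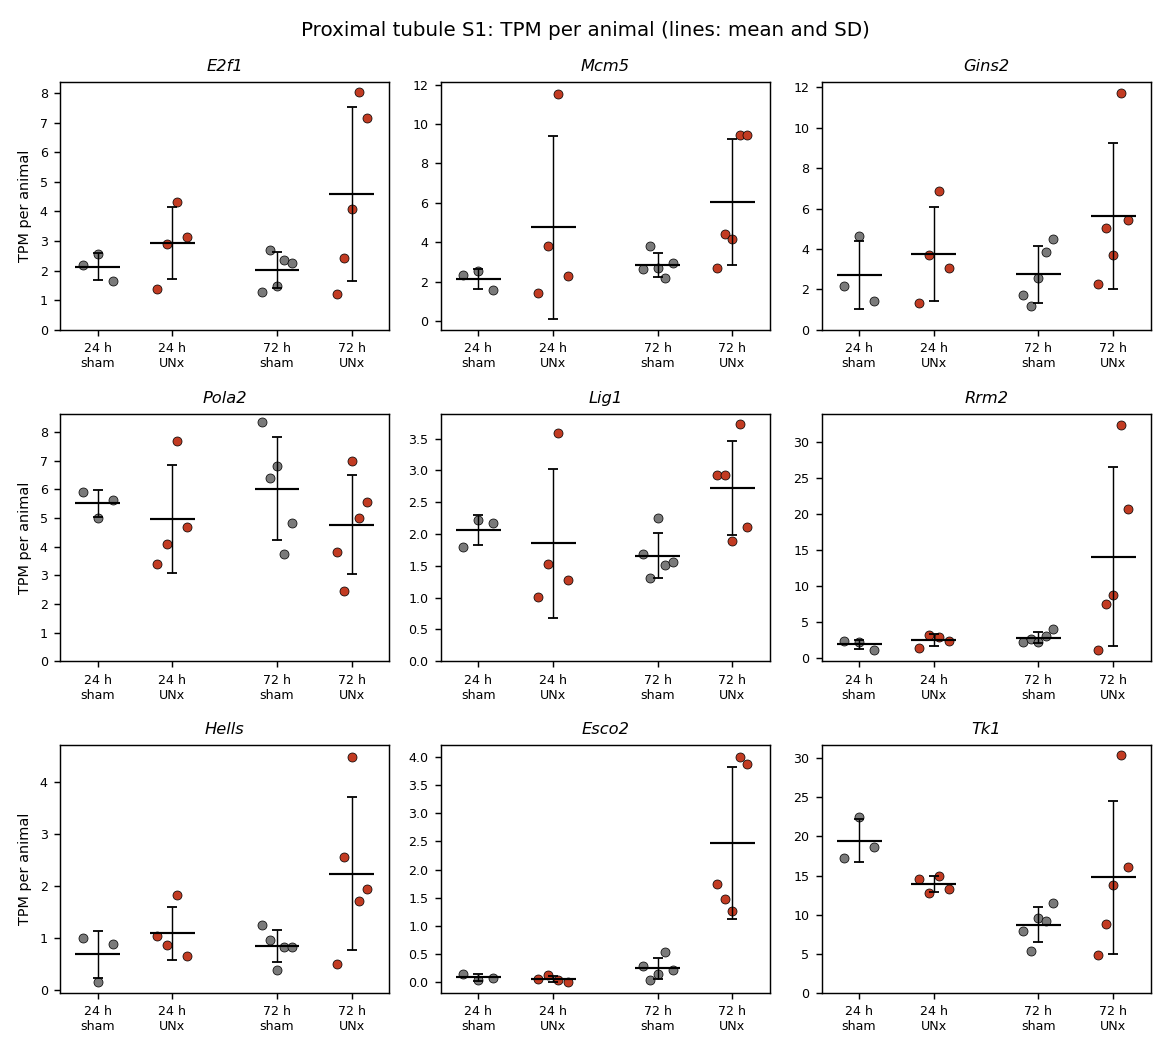
TPM per animal (points) with mean and SD (lines) for 9 members in PT-S1, sham in grey and UNx in red, at 24 h and 72 h. At 72 h the UNx animals spread widely, with Rrm2 between 1.11 and 32.4 TPM, while the sham animals stay between 2.17 and 4.04 TPM.

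In PT-S1 at 24 h none of 37 tested members passed the limma test, and 0.0% of the 11874 genes tested were called higher. None was higher at an unadjusted p under 0.05, against 2.59% of all genes, and 1 was lower, against 15.2%. No member had all UNx animals above all sham animals, against 2.79% of all genes, and 2 had them below, against 12.1%. The median change was 0.02 beside -0.19 for all genes, and 20 of 37 were positive, against 29.1% of all genes. Without the 2 low-correlation sham libraries the median of the members was -0.06. With median-ratio scaling the median of the members was 0.21 and that of all genes 0.01. The share of 29.1% belongs to the fit without scaling and with all libraries.

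The lower member was Tk1, at 17.3, 22.5 and 18.7 TPM in sham animals 1 to 3 and 14.6, 12.7, 14.9 and 13.3 TPM in UNx animals 1 to 4 of PT-S1 at 24 h. All UNx animals were below all sham animals, with a change of -0.45 (SE 0.17, unadjusted p = 0.0232, limma adjusted p = 0.255). Prim2, the large primase subunit, had the other pattern without overlap, 3.22, 3.39 and 3.9 TPM in sham and 3.05, 2.63, 3.08 and 2.61 TPM in UNx (-0.22, adjusted p = 0.491). UNx animal 3 held the highest value of the table for 31 of the 56 genes. In that animal Mcm5 was at 11.5 TPM, where the other animals were at 2.35, 2.52 and 1.58 TPM in sham and 1.41, 3.82 and 2.27 TPM in UNx. Mcm3 was at 1.35, 0.785 and 1.73 TPM in sham and 0.95, 1.59, 7.43 and 0.99 TPM in UNx, and Uhrf1 at 0.393, 0.355 and 0.523 TPM in sham and 0.08, 0.78, 2.75 and 0.283 TPM in UNx. Both libraries of UNx animal 3 were high, with Mcm3 at 6.13 and 8.73 TPM and Mcm5 at 9.52 and 13.6 TPM. With this animal left out, 35 members were tested and the median was -0.08.

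No member's change in PT-S1 differed between 72 h and 24 h (0 of 36, limma, smallest adjusted p = 0.998, none at an unadjusted p under 0.05), where 0.0% of the 11455 genes tested differed and 3.33% had an unadjusted p under 0.05. The segments were compared through their changes as well, within the same fit. At 24 h the change was the smaller in PT-S1 for 34 of 37 members, by a median of 0.43. Over all genes the difference was positive in 36.3%, with a median of -0.13. Tk1 passed the test with a difference of -2.02 (SE 0.33, limma adjusted p = 0.0366), where 0.137% of the 10988 genes tested differed. Its change was negative in PT-S1 and positive in the CCD. At an unadjusted p under 0.05, 8 of 37 members differed, all with the smaller change in PT-S1. Over all genes 15.4% differed in either direction, 1317 of 10988 with the smaller change in PT-S1 and 378 with the larger. At 72 h no member differed (0 of 40, smallest adjusted p = 0.420 for Timeless at -1.30), and 0.0% of the 11035 genes tested did. The change was the smaller in PT-S1 for 39 of 40 members, by a median of 0.65. Over all genes the difference was positive in 16.9%, with a median of -0.30. At 72 h 22 of 40 members had an unadjusted p under 0.05, all with the smaller change in PT-S1. Over all genes 9.33% differed in either direction, 963 of 11035 with the smaller change in PT-S1 and 67 with the larger. These comparisons reuse the animals of each table, and the labels do not say whether both segments came from the same mice.

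The genes around the members were read from 4 further lists, which were drawn up with earlier results of these data known. Other replication factors, 34 genes that include the remaining ORC, polymerase and RPA subunits, had 2 of 32 tested genes called higher in the CCD at each time, with medians of 0.08 and 0.22. Over all genes 0.327% were called higher at 24 h and 0.581% at 72 h. At an unadjusted p under 0.05, 9 of 32 were higher at 24 h and 12 of 32 at 72 h, and in 9 and 13 of 32 every UNx animal lay above every sham animal. The shares over all genes were 5.55% and 4.66% by unadjusted p, and 5.55% and 3.23% without overlap. The called genes were the same, Ccna2, the cyclin A of S phase (1.71 at 24 h, limma adjusted p = 0.0355, and 2.26 at 72 h, adjusted p = 0.00794), and Chtf18, of an alternative clamp loader (0.99, adjusted p = 0.0334, and 1.51, adjusted p = 0.0415). Among 15 genes of the E2F and pocket protein network none was called, and Foxm1, a factor of the later cell cycle, had changes of 1.29 and 1.18 (adjusted p = 0.0873 and 0.0924). In PT-S1 none of the 4 lists had a called gene at either time.

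Mitosis genes rose in the CCD as well, with medians above those of the members. At 24 h 15 of 28 tested mitosis genes were called higher, with a median of 1.27, and at 72 h 21 of 29, with a median of 1.68. Of all genes tested, 0.327% and 0.581% were called higher at these times. Top2a, the topoisomerase that untangles chromosomes, was at 1.82, 4.48, 1.63 and 3.83 TPM in sham and 9.81, 19.1 and 12.3 TPM in UNx at 24 h (2.01, limma adjusted p = 0.0289). Birc5, of the chromosomal passenger complex, was at 4.08, 4.79, 4.18 and 8.26 TPM in sham and 23.2, 28.4, 20.2 and 18.4 TPM in UNx at 72 h (1.97, limma adjusted p = 0.00634). In PT-S1 at 72 h 0 of 20 were called by limma, and the median was 1.10. At an unadjusted p under 0.05, 18 of the 20 were higher, against 1.33% of all genes. Prc1, which bundles the spindle midzone, was at 0.445, 1.33, 1.43, 1.03 and 0.67 TPM in sham and 2.12, 4.8, 3.22, 11.9 and 5.84 TPM in UNx there (1.61, adjusted p = 0.237), without overlap, and UNx animal 4 was highest, as for the replication genes. In PT-S1 at 24 h, UNx animal 3, which had the highest mean of the 56 genes at 2.43, had a mitosis mean of 0.743, beside 0.761 to 0.809 in the sham animals.

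**Figure D5:**
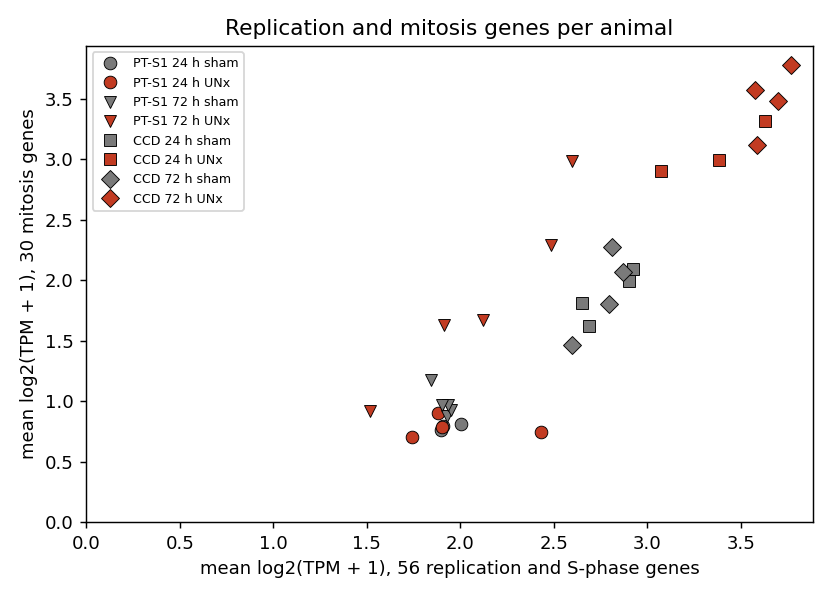
Mean log2(TPM + 1) of the 30 mitosis genes against that of the 56 replication and S-phase genes, a point per animal, with the table given by the symbol and sham in grey or UNx in red. CCD UNx animals form the upper right group, PT-S1 UNx animals of 72 h spread between 0.917 and 2.98 on the mitosis axis, and PT-S1 UNx animal 3 of 24 h lies to the right at 2.43 with a mitosis mean of 0.743.

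The CDK inhibitors and D-type cyclins, which sit upstream of E2F, had 2 of 11 tested genes called lower and none higher in the CCD at 24 h. Of the 13775 genes tested there, 91 were called lower. Cdkn1b, the inhibitor p27 that keeps cells from entering S phase, was at 16, 14.2, 10.4 and 12.9 TPM in sham and 3.5, 4.75 and 3.08 TPM in UNx, and fell by 1.61 (limma adjusted p = 0.0118). Ccnd1, the D-type cyclin, was at 109, 81.5, 101 and 78.5 TPM in sham and 42.9, 43.4 and 53.5 TPM in UNx, and fell by 0.99 (adjusted p = 0.0226). Neither overlapped between the groups. At 72 h their changes were -0.26 and 0.08 with overlap, and Cdkn2c, the inhibitor p18 of the CDK4 and CDK6 kinases, was the gene called, at 9.44, 11, 10.5 and 13 TPM in sham and 20.7, 22, 18.2 and 17.6 TPM in UNx (0.79, adjusted p = 0.0382). Over all genes 0.581% were called higher at 72 h.

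Markers of other cells were summed beside these results. In the CCD the 6 lymphocyte markers summed to 3.53 to 6.23 TPM in sham and 3.70 to 3.98 TPM in UNx at 24 h, and to 2.27 to 5.41 and 3.35 to 4.93 TPM at 72 h. The 8 macrophage and leukocyte markers summed to 192 to 375 and 195 to 335 TPM at 24 h and to 126 to 389 and 178 to 405 TPM at 72 h. The 6 principal cell markers summed to 19290 to 45920 TPM in sham and 42670 to 61900 TPM in UNx at 24 h, and to 18750 to 38570 and 18970 to 26960 TPM at 72 h. Those of the thick ascending limb, a neighbouring segment, ran from 111.7 to 3548 TPM in sham and 104.5 to 223.4 TPM in UNx at 24 h. At 72 h they ran from 28.9 to 86.1 and 36.9 to 48.4 TPM. All of these ranges overlapped, and no gene of the 12 marker lists was called in any table. The list without overlap was that of intercalated cells in PT-S1 at 72 h, 3.49 to 20.8 TPM in sham and 1.86 to 2.78 TPM in UNx. The part of other cells in the members' values was not tested.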

How the data were processed

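RNA-seq of dissected tubules was made with a Zymo extraction and a SMART-Seq V4 cDNA kit, per the labels' protocols. The authors deposited TPM values per gene and library in 4 tables, 1 per segment and time, made with STAR and RSEM 1.3.3 on GRCm39 per the submitters' processing notes. TPM is scaled to a total of 1000000 per library, so the depth is unknown, and the tables were treated as normalized separately. The 56 members and all lists were chosen with earlier results of these data known. Of the 69 columns, 47 matched a single sample and 22 a group and animal. Libraries of an animal were averaged on log2(TPM + 1), with a pseudocount of 1. Genes averaging 1 TPM or more over the sham and UNx animals together were tested in limma 3.58.1 (R 4.3.3). A gene scarce in sham could thus pass through its UNx level. Tests were two-sided and moderated with a trend, with Benjamini-Hochberg over all genes tested and a threshold of 0.05. Differences between times or segments were contrasts of a model of both tables. The script was tested on simulated data.

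Named per table were all members past the threshold and, up to 20 in all, those with the smallest p, the smallest p of each role in PT-S1 at 72 h, any member called in another table, and the 2 genes with the smallest p of each other list. Other members were named by role after their values were seen. In the CCD at 72 h, 1 called member is counted but not reported here by its values. Alternatives were a pseudocount of 0.1, no filter or a mean TPM of at least 5, quantile or median-ratio scaling, libraries as replicates or with a random animal effect, averaging before the log, leaving out libraries with a correlation under 0.92, a replicate block and leaving out each animal.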

Additional observations from a re-analysis of the deposited data

Results flagged for a closer look

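Of the 120 groups of animal values checked, 6 held an animal far from the rest, which chance alone gives in about 1 of 20 groups. In the CCD at 72 h, 4 of these were low sham values of genes that rose. Asf1b was at 3.32 TPM in sham animal 2, beside 4.09 to 4.26 TPM in the other sham animals. In sham animal 1, which holds a library of low correlation, Fignl1 was at 1.34 TPM beside 1.70 to 1.80, Uhrf1 at 3.83 TPM beside 5.66 to 5.96, and Timeless at 1.42 TPM beside 2.83 to 3.27. Pcna was at 52.9 TPM in UNx animal 1 of the same table, beside 58.2 to 59.1 TPM in the other UNx animals. Dut was at 22.5 TPM in sham animal 5 of PT-S1 at 72 h, beside 29.1 to 30.0 TPM in the other sham animals. The change of Tk1 at 24 h differed between the segments by -2.02 (PT-S1 minus CCD).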

How the results depend on the processing

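The 17 members called in the CCD at 72 h became 3 without the filter and 8 with a mean TPM of at least 5, and 3 to 15 with an animal left out, which gave median changes from 0.74 to 0.85. The 3 called in the CCD at 24 h became 0 without the filter, 0 with averaging before the log, 5 with median-ratio scaling, 15 with a random animal effect, 24 with every library a replicate and 0 with any animal left out, which gave medians from 0.35 to 0.61. In PT-S1 at 72 h, 1 member (Esco2) was called with every library a replicate and 1 with a random animal effect, and 0 with any animal left out, which gave medians from -0.09 to 0.19. Taking every library as a replicate counts several libraries of a mouse as independent, so those calls do not measure the spread between animals. In PT-S1 at 24 h 0 were called with any animal left out, with medians from -0.08 to 0.09. Members differing between PT-S1 and CCD at 24 h were 2 without the filter and 0 to 1 with an animal left out, and 0 in the other differences. The causes were not tested.

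With the replicate number as a block, 0 members were called in the CCD at 24 h, 2 at 72 h (Mcm3 and Mcm5) and 0 in PT-S1, with medians of 0.50, 0.83, 0.02 and 0.04 in CCD at 24 h and 72 h and PT-S1 at 24 h and 72 h. The deviations of same-numbered sham and UNx animals from their group means correlated at -0.366 to 0.328. Whether such animals share more than a number cannot be told from these values.

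Some directions turned in PT-S1, where scaling moved the median of all genes from -0.19 and -0.29 to about 0. At 24 h, quantile normalization gave Prim2 0.01, Rrm1 0.07 and Orc6 0.08, median-ratio scaling gave Rrm1 0.04 and Orc6 0.04, leaving out a single animal gave Rrm1 -0.39 to 0.02 (0.02 without sham animal 1) and Mcm3 -0.08 to 0.62 (-0.08 without UNx animal 3). At 72 h, quantile normalization gave Slbp 0.06, Dut 0.07, Usp1 0.14 and Orc6 0.02. Median-ratio scaling gave Slbp 0.14, Dut 0.20, Usp1 0.18 and Orc6 0.06. Leaving out the low-correlation libraries gave Slbp 0.03 and Cdt1 0.03. These are members named per table. Beyond them, median-ratio scaling at 72 h also turned Mcm7, Rfc3, Rfc5, Rpa2, Fen1, Rrm1, Tyms, Dnmt1 and Chaf1a from negative to positive. Cdt1 and Pola2 stayed negative there, at -0.05 and -0.12. At 24 h such scaling also turned Cdt1, Chaf1a, Fen1, Mcm10, Mcm2, Mcm4, Mcm7, Pola2 and Slbp. Dnmt1, Lig1, Pold1, Prim2, Tk1 and Usp1 stayed negative at 24 h.

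The TPM values carry no depth, so no counting error is given, and genes near 1 TPM are the least certain. Small groups of 3 to 5 animals and libraries averaged per animal set the precision.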
